A study of Mus musculus with 6 samples.

Results

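The genes described here are the nuclear-encoded subunits of the mitochondrial respiratory chain and of ATP synthase, sorted by complex. They were chosen by name: symbols of the forms Nduf (complex I), Sdh (complex II), Uqcr (complex III), Cox4 to Cox8 (complex IV) and Atp5 (complex V), and kept where their 6 libraries averaged 1 RPKM or more. RPKM is the number of reads per kilobase of gene, divided by the library's counted reads and rescaled. Of 83 matching symbols, 79 reached that mean, out of 11326 genes that did so and 53677 in the table. They were 36 genes of complex I, 4 of complex II, 8 of complex III, 15 of complex IV and 16 of complex V, and each had a mean of at least 1 RPKM in either genotype alone. The 4 that did not reach it were Cox7b2, Cox8b, Cox8c and Ndufa4l2. Just inside the limit were Ndufb2, at a mean of 2.27 RPKM, and Cox5a, at 3.12. Just outside were Cox8b at 0.02 and Ndufa4l2 at 0.01.

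RNA came from bone marrow cells of C57BL/6J mice that were sorted as Lin- ckit+ CD48+ CD150- and are called short-term hematopoietic stem cells (ST-HSC) by the submitters. The 3 libraries of the WT group carry the genotype label dnTCF4-/-, and the 3 of the other group carry dnTCF4+/+ and express dnTCF4, a dominant-negative form of the transcription factor TCF4. No treatment, age or second allele is labelled in either group, and neither the promoter nor the cell type that drives dnTCF4 is given. Sca-1 is not among the markers of the labelled gate. By the study description there were 3 mice per genotype, so libraries of a group were taken as separate animals. The comparison asked how RNA levels in these progenitors differ when the transcription that TCF and LEF factors carry out with β-catenin is blocked.

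The respiratory chain moves electrons from NADH (through complex I) and from succinate (through complex II) to ubiquinone, on to cytochrome c through complex III, and to oxygen through complex IV. The proton gradient made on the way drives ATP synthase, counted as complex V. Complex II is built of nuclear-encoded proteins alone, while each of the other complexes also takes subunits made from the mitochondrial genome. Hematopoietic stem cells are known for a low use of oxidative phosphorylation, which grows as they leave quiescence and differentiate. Promoters of many subunit genes are known to carry sites of the factors NRF-1, GABP (an ETS factor) and YY1.

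Promoter sequence from RefSeq (GRCm38.p6, 250 bases before to 50 after each start) was matched for 66 of the 79 members, 2 of them by an older symbol, in 71 windows. Each word was searched on both strands, and words may overlap. The NRF-1 word GCATGCGC stood in 10 of the 71 windows (14.1%), against 2.71% of all 32851 windows of the same length. For the ETS word CCGGAAG the shares were 22.5% and 8.86%, and for the YY1 word AAGATGGC 14.1% and 2.75%. The TCF and LEF word CTTTGA stood in 8 windows (11.3%), against 16.0% of all windows. A match is a description of letters, not a bound site.

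The following 100 bases end just before the start of 4 genes, at whichever of the RefSeq and GENCODE starts lies further upstream. They are shown because these genes, 2 from complex I and 1 each from complexes II and III, took opposite sides in dnTCF4 replicate 3, described further on: Ndufa11 and Uqcr11 were low there, Ndufa6 and Sdhd high. Capitals mark the NRF-1 word in Ndufa11 and Ndufa6 (in Ndufa11 it is read on both strands, in overlap) and the ETS word, on either strand, in Sdhd and Uqcr11. The full window of Uqcr11 also held the NRF-1 word from base -4 and the TCF and LEF word from base -190. Both lie outside the bases shown. The positions are chr17:56717662-56717761 (plus strand) for Ndufa11, chr15:82354323-82354422 (minus strand) for Ndufa6, chr9:50603850-50603949 (minus strand) for Sdhd and chr10:80406831-80406930 (minus strand) for Uqcr11.
Ndufa11: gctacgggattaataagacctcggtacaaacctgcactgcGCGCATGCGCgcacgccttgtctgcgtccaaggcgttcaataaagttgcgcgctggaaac
Ndufa6: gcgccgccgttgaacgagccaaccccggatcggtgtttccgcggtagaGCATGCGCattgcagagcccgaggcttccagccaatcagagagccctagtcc
Sdhd: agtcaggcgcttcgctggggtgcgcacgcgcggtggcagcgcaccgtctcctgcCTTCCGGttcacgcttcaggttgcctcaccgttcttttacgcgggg
Uqcr11: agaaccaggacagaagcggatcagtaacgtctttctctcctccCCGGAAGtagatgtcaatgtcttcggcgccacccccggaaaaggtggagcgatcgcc

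Between 61800000 and 67700000 reads were counted per library in WT and between 57400000 and 110900000 in dnTCF4. Immunoglobulin genes took 25.5% to 44.1% of the summed RPKM in WT and 3.27% to 6.33% in dnTCF4. The median log2 fold change of all tested genes was 0.14 (dnTCF4 minus WT, on log2(RPKM + 1)). With immunoglobulin genes left out and the rest rescaled, it was -0.02, and the median of the members went from 0.21 to 0.01. Among the genes of the sort gate, Kit ranged from 35.5 to 97.1 RPKM over the 6 libraries and Cd48 from 813 to 1415. Slamf1, which encodes CD150, ranged from 0.744 to 1.18. The lowest Kit level was that of dnTCF4 replicate 3, while the other dnTCF4 libraries held 74.8 and 97.1 and WT spanned 47.3 to 83.7. Cd48 and Slamf1 were instead highest in dnTCF4 replicate 3. Summed RPKM of 10 neutrophil markers was 621, 754 and 3122 in WT and 3073, 3724 and 7598 in dnTCF4, and that of 8 B and plasma cell markers 7998, 2813 and 2726 against 797, 401 and 783. Of the markers tested, 8 of 9 and 1 of 7 had the higher mean in dnTCF4. Erythroblast markers summed to 17.7 to 29.1 RPKM in WT and 51.5 to 94.5 in dnTCF4, and megakaryocyte markers to 49.5 to 71.2 and 124 to 163, without overlap of the groups and with 4 of 4 tested genes higher in each list (2 of 4 for megakaryocytes with median ratio scaling). Sums of the T and NK cell, macrophage and stroma lists overlapped between the groups, and no marker of any list was at 0 in all libraries. The part of any list in the subunit values was not tested. In RNA of sorted pools, fewer cells of a type and less RNA per cell cannot be told apart.

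No subunit of any complex passed the test between genotypes. With limma on all 11326 genes and Benjamini-Hochberg adjustment, 0 of 79 members had an adjusted p under 0.05, where 34 genes, or 0.3% of those tested, did. The smallest adjusted p of a member was 0.427, for Cox6b2. At an unadjusted p under 0.05 limma listed 6 members, each higher in dnTCF4 (Cox6b2, Ndufb3, Ndufb4, Uqcrb, Ndufv3 and Cox6a1), or 7.59% of the members. Of all genes 9.62% had such a p, 7.52% on the higher side. Fold changes of single members lay between -0.69 and 0.67 on the log2 scale. Of the 79, 46 had a higher mean log2 level in dnTCF4 and 33 a lower one, 58.2% higher against 68.5% of all genes. Of the 2801 genes that averaged 20 RPKM or more, as 64 members did, 60.3% were higher. The median fold change was 0.21 for the members, 0.14 for all genes and 0.11 for those of 20 RPKM or more.

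The complexes differed in how their subunits were spread. In complex IV 13 of 15 subunits had the higher level in dnTCF4 (median log2 fold change 0.43), and in complex V 13 of 16 (median 0.22). In complex I only 14 of 36 were higher and 22 lower, with a median of -0.13. Complex II had 2 higher and 2 lower (median -0.10), and complex III 4 and 4 (median 0.05). The 3 values of each genotype did not overlap for 21 of 79 members, all higher in dnTCF4. Of all genes 15.4% did the same, and 601 of the 2801 that averaged 20 RPKM or more. The 21 were 7 in complex I, 2 in complex II, 2 in complex III, 9 in complex IV and 1 in complex V. No member was lower in dnTCF4 without overlap, against 2.26% of all genes and 124 of those 2801. These counts use RPKM as deposited and were not repeated with other scalings. Since the groups are of 3, an exact two-sided permutation test of a single gene cannot give a p below 0.1.

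**Figure D1:**
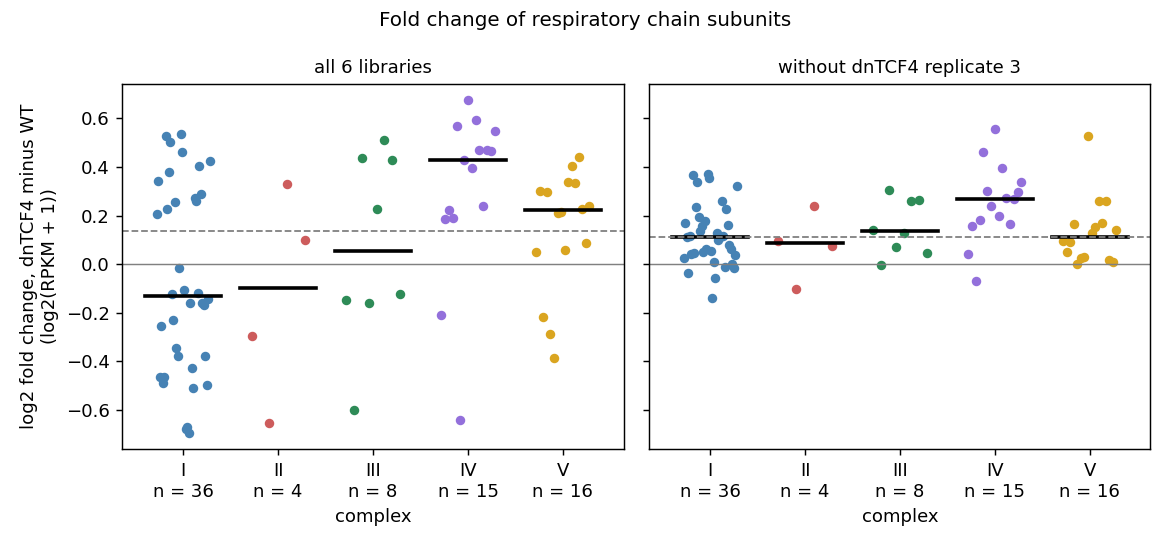
Log2 fold change of each subunit (dnTCF4 minus WT, on log2(RPKM + 1)) by complex, with all 6 libraries on the left and without dnTCF4 replicate 3 on the right. Each point is 1 gene, the black bar is the complex's median and the dashed line the median of all genes tested. With 6 libraries complexes I, II and III show a higher and a lower cluster of points, and complex IV lies mostly above the dashed line. Without that library the lower clusters lie near 0.

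Most of the lower values rested on 1 library. Within the dnTCF4 group, replicate 3 was below the mean of replicates 1 and 2 for 36 members and above it for 43. Replicate 3 was thus below it in 45.6% of the members, 40.9% of all genes and 48.7% of the genes that averaged 20 RPKM or more. The split ran through every complex: 22 below and 14 above in complex I, 2 and 2 in complex II, 4 and 4 in complex III, 2 and 13 in complex IV, and 6 and 10 in complex V. For 18 members replicate 3 was more than 1 log2 unit below the others, 13 of them in complex I. That is 22.8% of the members, against 9.87% of all genes and 20.6% of those that averaged 20 RPKM or more. Replicate 3 was the highest of the 6 libraries for 41 members (51.9%) and the lowest for 29 (36.7%), against 42.4% and 24.3% of all genes and 37.3% and 36.0% of those that averaged 20 RPKM or more.

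WT replicate 2 stood on the other side. It was the highest of 6 for 19 of the 29 members whose lowest value was in dnTCF4 replicate 3. That combination held in 24.1% of the members, in 11.9% of all genes and in 17.4% of those that averaged 20 RPKM or more. The deviation of dnTCF4 replicate 3 from its 2 companions was compared with that of WT replicate 2 from its own. Spearman's rho was -0.78 across the 79 members, -0.47 across all genes and -0.51 across those that averaged 20 RPKM or more. Genes are not independent replicates and all points share the same 6 libraries, so this describes the libraries. The first principal component of the 79 members held 75.3% of their variance and set dnTCF4 replicate 3, at 0.85, against WT replicate 2, at -0.46. The SD of the members' deviations from their means was 0.78 in dnTCF4 replicate 3, 0.42 in WT replicate 2 and 0.16 to 0.25 in the other libraries. Over all genes these SDs were 0.63, 0.45 and 0.37 to 0.53. Over the genes that averaged 20 RPKM or more they were 0.92, 0.65 and 0.56 to 0.86.

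**Figure D2:**
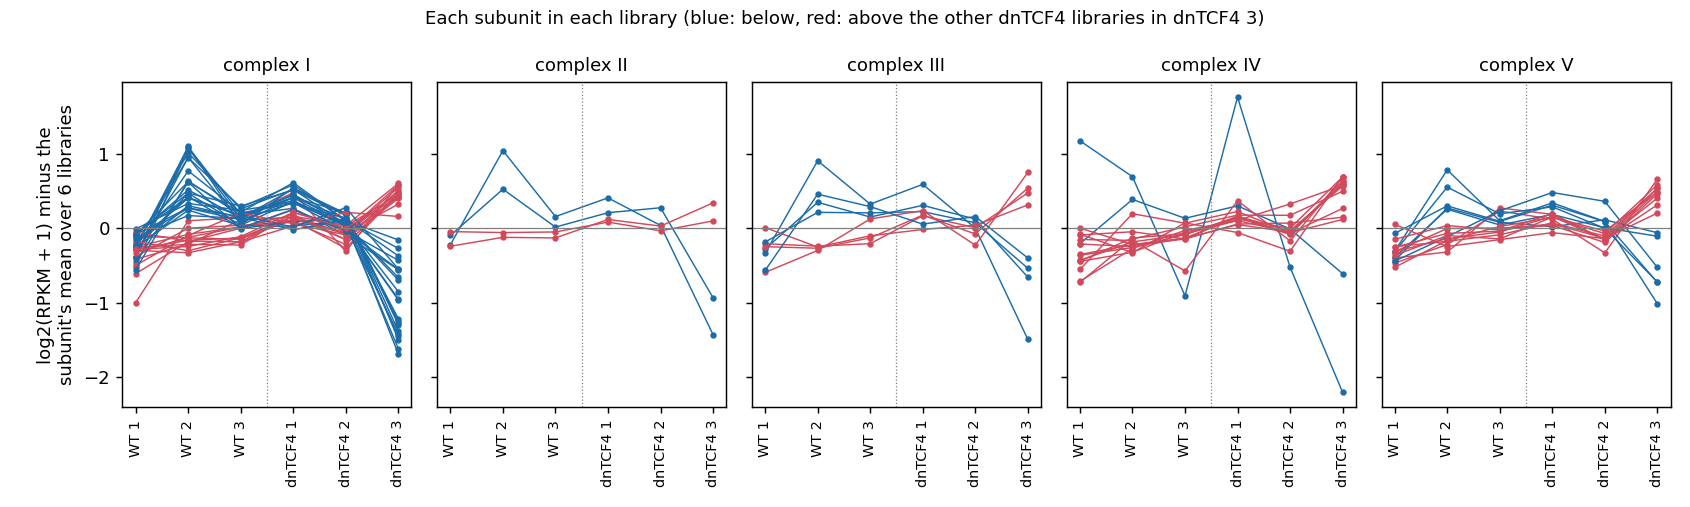
Log2(RPKM + 1) of every subunit in each library, less the subunit's mean over the 6 libraries, in 1 panel per complex. Lines join the values of 1 gene across libraries, blue where dnTCF4 replicate 3 lies below the other dnTCF4 libraries and red where it lies above them. The blue genes also tend to peak in WT replicate 2, and both colours appear in every complex.

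**Figure D3:**
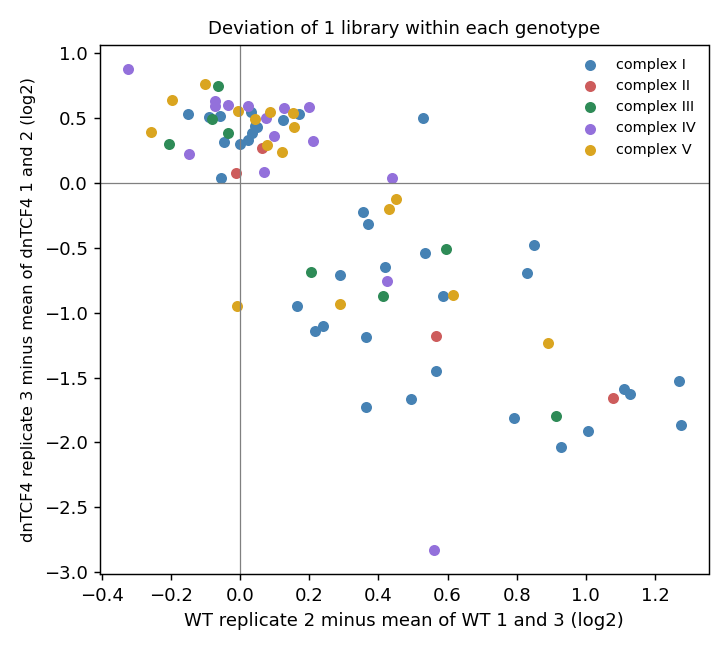
Deviation of WT replicate 2 from the mean of WT replicates 1 and 3 (horizontal, log2) against the deviation of dnTCF4 replicate 3 from the mean of replicates 1 and 2 (vertical, log2), 1 point per subunit, coloured by complex. The points far below 0 lie mostly to the right, and most of them belong to complex I.

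Without dnTCF4 replicate 3, 70 of the 79 members had the higher mean in dnTCF4, against 73.2% of all genes. Of the 2801 genes that averaged 20 RPKM or more over the 6 libraries, 2176 did. The medians were 0.11, 0.08, 0.13, 0.27 and 0.11 for complexes I to V. Complex IV was highest there too. Leaving out WT replicate 2 alone also turned complex I, to a median of 0.04 with 20 subunits higher and 16 lower, and left complex II at -0.01. The fit without both dnTCF4 replicate 3 and WT replicate 2 was a setting chosen after the data were seen. In it 77 of 79 members were higher, against 75.1% of all genes and 2319 of those 2801. The medians were then 0.24, 0.26, 0.24, 0.28 and 0.19. No member was called in either fit with limma. In that last fit the median of complex IV was thus close to those of complexes I, II and III.

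The members on either side of the split differed in base composition. Their transcripts had a median GC content of 54.1% where dnTCF4 replicate 3 was lower and 49.8% where it was higher. Over 78 members with an annotated transcript, GC content and the deviation of that library had a Spearman's rho of -0.31, and transcript length one of -0.14. Over all genes the rho with GC was also -0.31. The NRF-1 word stood in 6 of the 32 promoter windows of the lower side (18.8%) and in 4 of the 39 of the higher (10.3%). For the ETS word these were 7 (21.9%) and 9 (23.1%), and for the YY1 word 5 (15.6%) and 5 (12.8%). The TCF and LEF word stood in 4 windows on each side (12.5% and 10.3%). The part of GC content in the split was not tested.

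Complex II shows the pattern in 4 genes. Sdha, the flavoprotein that oxidises succinate (chr13:74322254-74350280), had RPKM values of 147, 228 and 159 in the WT libraries (replicates 1, 2 and 3, the order used throughout) and of 183, 191 and 82.0 in the dnTCF4 libraries. Sdhb, the iron-sulphur subunit that passes the electrons on (chr4:140961203-140979193), was at 88.1, 213 and 115 in WT and at 137, 106 and 37.5 in dnTCF4. In both genes WT replicate 2 was the highest library and dnTCF4 replicate 3 the lowest, and the groups overlapped. The log2 fold changes were -0.30 (SE 0.36, limma adjusted p = 0.753) for Sdha and -0.66 (SE 0.52, limma adjusted p = 0.705) for Sdhb.

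The membrane anchors of complex II, which hold the heme and the ubiquinone site, did not fall in dnTCF4 replicate 3. Sdhc (chr1:171127165-171150603) was at 105, 115 and 114 RPKM in WT and 136, 127 and 159 in dnTCF4. Sdhd (chr9:50596357-50603812) was at 593, 587 and 591 in WT and 648, 597 and 655 in dnTCF4. The groups did not overlap in either gene, and dnTCF4 replicate 3 held the highest value of both. On the log2 scale the differences were 0.33 (SE 0.17, limma adjusted p = 0.588) for Sdhc and 0.10 (SE 0.15, limma adjusted p = 0.784) for Sdhd. Each had an exact permutation p of 0.1, the smallest possible. The ratio of Sdhb to Sdhd was 0.149, 0.364 and 0.194 in WT and 0.211, 0.177 and 0.0572 in dnTCF4, so the balance of 2 genes of a single enzyme differed 6.36-fold between WT replicate 2 and dnTCF4 replicate 3. A ratio within a library does not depend on how that library was scaled.

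Complex I, the NADH dehydrogenase, had 36 members, among them core subunits that carry the flavin and the iron-sulphur clusters. Ndufv1, which binds NADH and the flavin, was at 66.4, 109 and 81.6 RPKM in WT and 89.2, 77.4 and 29.8 in dnTCF4. Ndufs8, a carrier of iron-sulphur clusters, was at 399, 506 and 475 in WT and 512, 410.5 and 207 in dnTCF4. In both the value of dnTCF4 replicate 3 was the lowest of 6, and the other dnTCF4 libraries lay within the WT range or just above it. Their log2 fold changes were -0.50 (SE 0.42) and -0.38 (SE 0.33), with limma adjusted p of 0.711 and 0.715, and without that library -0.02 and 0.00.

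Ndufs1, the largest core subunit of the electron-input arm, was at 36.5, 33.5 and 33.3 RPKM in WT and 38.7, 44.1 and 42.4 in dnTCF4. Its groups did not overlap, at a log2 fold change of 0.27 (SE 0.16, limma adjusted p = 0.637), and dnTCF4 replicate 3 did not stand apart in it. Further core genes, given as WT mean and then dnTCF4 mean (± SD, n = 3), were Ndufs3 at 3.59 ± 0.908 and 3.19 ± 0.553 RPKM, Ndufs7 at 14.3 ± 5.99 and 12.2 ± 3.64, and Ndufv2 at 180.4 ± 42.5 and 163 ± 38.0. Each of these 3 differences was smaller than the SD of at least 1 group. Mean levels of these core subunits, of which the complex holds 1 copy each, thus ran from 3.59 to 460.0 RPKM in WT. Words of 50 bases shared with other genes made up 39.7% of Ndufs3 and none of Ndufs8, and the counting of such reads is not given in the sources used here.

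Among the accessory subunits, which surround the core, the lowest fold changes were mostly those of the membrane arm. Ndufb8 was at 89.5, 215 and 127 RPKM in WT and 153, 109.9 and 33.7 in dnTCF4. Ndufc2 was at 115, 326 and 156 in WT and 221, 172 and 52.8 in dnTCF4. Ndufb7 was at 31.4, 72.6 and 45.3 in WT and 56.1, 39.8 and 10.8 in dnTCF4. In all 3, picked after their values were seen, WT replicate 2 was highest and dnTCF4 replicate 3 lowest, at less than the lowest WT library. Ndufa13 and Ndufa11, 2 further membrane arm subunits, were at 48.1 and 24.0 RPKM in dnTCF4 replicate 3 against 144 to 205 and 72.7 to 92.4 in the other dnTCF4 libraries. The limma fold changes of these 5 ran from -0.69 to -0.46, with adjusted p from 0.711 to 0.749, and without dnTCF4 replicate 3 from -0.06 to 0.11. Ndufb8 over Ndufb3, a pair from the same arm, gave ratios of 0.351, 0.864 and 0.460 in WT and 0.434, 0.342 and 0.0707 in dnTCF4.

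The other side of complex I was led by Ndufb3, Ndufb4 and Ndufv3, the members of the complex with the smallest p. Ndufb3 was at 255, 249 and 276 RPKM in WT and 351, 321 and 477 in dnTCF4. Ndufb4 was at 53.7, 55.1 and 54.8 in WT and 74.6, 65.5 and 88.1 in dnTCF4. Every dnTCF4 library exceeded every WT library in both genes, and also in Ndufv3, an accessory subunit next to the flavin site. The log2 fold changes were 0.54 (SE 0.20), 0.46 (SE 0.17) and 0.43 (SE 0.18), with limma adjusted p of 0.455, 0.476 and 0.516. Without dnTCF4 replicate 3 they were 0.37, 0.35 and 0.32. Of the 50-base words of Ndufb4, 37.0% are found in other genes. Ndufa6, whose promoter is shown above with the same NRF-1 word as Ndufa11, was at 18.4, 40.6 and 41.9 RPKM in WT and 53.1, 30.3 and 57.3 in dnTCF4. Its groups overlapped, and dnTCF4 replicate 3 was its highest library where it was the lowest for Ndufa11.

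By name class, 7 of 13 Ndufa genes, 2 of 10 Ndufb, 0 of 2 Ndufc, 4 of 8 Ndufs and 1 of 3 Ndufv had the higher mean in dnTCF4, and without dnTCF4 replicate 3 the counts were 12, 8, 2, 7 and 2. The member of the complex with the highest level, Ndufa4, was at 872, 1137 and 1169 RPKM in WT and 1205, 978 and 1573 in dnTCF4. It carries a complex I name but is known as a subunit of complex IV, and moving it there leaves complex I with 13 of 35 higher and gives complex IV 14 of 16. The paralog Ndufa4l2 stayed under the limit of 1 RPKM. Ndufb2, the lowest member, was at 2.30 ± 0.567 and 2.24 ± 0.296 RPKM (SD, n = 3). Of its 50-base words, 5.39% are found in other genes. Neither the gene models nor the counting of shared reads is known here, so low levels such as that of Ndufb2, and those of Uqcrc1 and Atp5d given further on, are uncertain as levels of these genes.

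**Figure D4:**
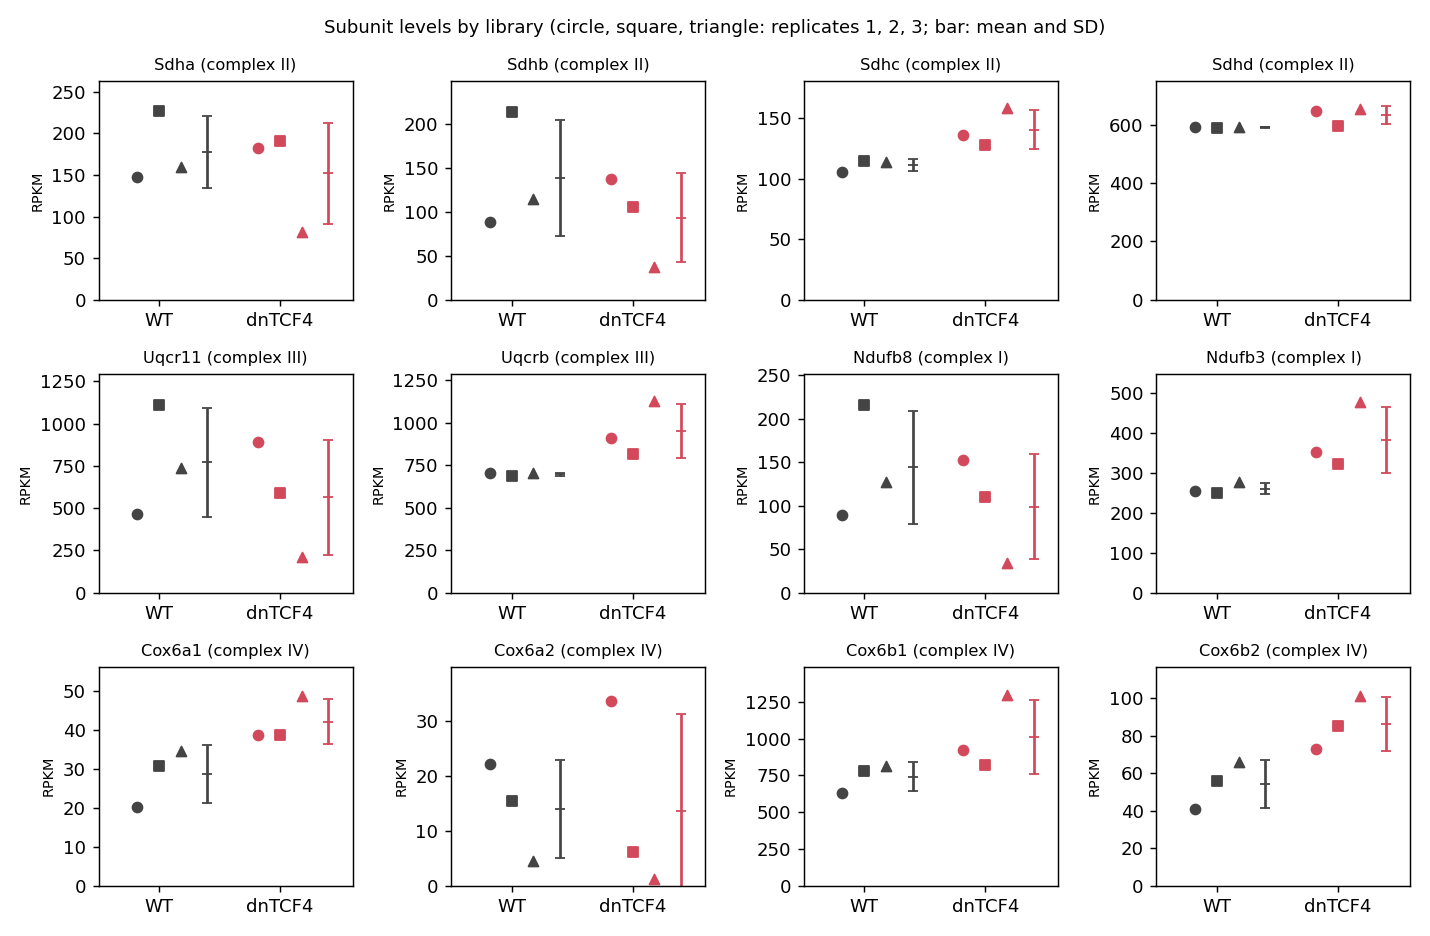
RPKM of 12 subunits in each library, on linear axes that start at 0, with WT in grey and dnTCF4 in red; circle, square and triangle are replicates 1, 2 and 3, and the bar is the mean and SD of 3 libraries. The SD bar of Cox6a2 in dnTCF4 is cut off at 0. In Sdha, Sdhb, Uqcr11 and Ndufb8 the WT square is high and the dnTCF4 triangle low. In Sdhc, Uqcrb, Ndufb3 and Cox6b1 the dnTCF4 triangle is the highest point.

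Complex III passes electrons from ubiquinol to cytochrome c. Its core proteins and the Rieske iron-sulphur protein had no common direction: Uqcrc1 averaged 4.39 ± 0.813 RPKM in WT libraries and 3.91 ± 1.27 in dnTCF4 libraries, Uqcrc2 at 136 ± 12.4 and 160.2 ± 20.3, and the Rieske protein Uqcrfs1 at 12.3 ± 3.37 and 18.2 ± 6.49 (SD, n = 3). The groups overlapped in all 3. Uqcrb, a small subunit near the ubiquinone site and the highest of the complex, was at 701, 684 and 701 in WT and 909, 813 and 1125 in dnTCF4. Uqcr11, the smallest subunit, was at 467, 1109 and 739.8 in WT and 889.8, 591 and 208 in dnTCF4. The 2 small subunits went opposite ways in dnTCF4 replicate 3, and their ratio, Uqcr11 over Uqcrb, ran from 0.667 to 1.62 in WT and was 0.978, 0.727 and 0.185 in dnTCF4.

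For Uqcrb the groups did not overlap, with a log2 fold change of 0.44 (SE 0.17, limma adjusted p = 0.500), and 43.4% of its 50-base words are found in other genes. The hinge protein Uqcrh was also higher in every dnTCF4 library, at 249 ± 13.2 and 341 ± 74.5 RPKM (log2 fold change 0.43, SE 0.20, limma adjusted p = 0.563). For Uqcr11 the fold change was -0.60 (SE 0.55, limma adjusted p = 0.722), and without dnTCF4 replicate 3 it was -0.00.

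Complex IV, the cytochrome c oxidase, had the higher mean in dnTCF4 for 86.7% of its subunits, but also the widest range of levels within a subunit, that of Cox6a2. Its nuclear subunits surround a catalytic core made from the mitochondrial genome. Cox6b1, which faces cytochrome c and had the highest level of the complex, was at 629, 782 and 814 RPKM in WT and 919, 822 and 1295 in dnTCF4. Cox6a1 was at 20.2, 30.8 and 34.6 in WT and 38.7, 38.7 and 48.6 in dnTCF4. Cox8a was at 26.6, 29.1 and 35.3 in WT and 40.1, 36.6 and 59.8 in dnTCF4. Every dnTCF4 library lay above every WT library in these 3 genes, and the same held for Cox4i2, Cox6b2, Cox6c, Cox7a2, Cox7b and Cox7c. The log2 fold changes were 0.43 (SE 0.22) for Cox6b1, 0.57 (SE 0.24) for Cox6a1 and 0.55 (SE 0.23) for Cox8a, with limma adjusted p of 0.597, 0.516 and 0.523.

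The exceptions in complex IV were Cox4i1 and Cox6a2. Cox4i1, the common isoform of the largest nuclear subunit, was at 316, 478 and 401 RPKM in WT and 450.2, 363 and 239 in dnTCF4, with WT replicate 2 highest and dnTCF4 replicate 3 lowest (log2 fold change -0.21, SE 0.28, limma adjusted p = 0.765). Its ratio to Cox6b1 was 0.502, 0.612 and 0.493 in WT and 0.490, 0.441 and 0.184 in dnTCF4. Cox5a, the lowest member, was at 2.72 ± 0.512 and 3.51 ± 1.73 RPKM (SD, n = 3), far below Cox4i1, its assembly partner in the complex. Of the 50-base words of Cox5a, 32.0% are shared with other genes.

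Several complex IV subunits have isoforms known from particular tissues. Cox6b2, known from testis, was at 40.8, 55.8 and 66.2 RPKM in WT and 72.9, 85.0 and 101 in dnTCF4 (chr7:4751792-4753094). All 3 dnTCF4 libraries exceeded all WT libraries, and the log2 fold change of 0.67 (SE 0.23, limma adjusted p = 0.427) was the highest of the 79, and 0.55 without dnTCF4 replicate 3. As a share of the 2 Cox6b genes it was 6.76% ± 0.721 in WT and 7.99% ± 1.20 in dnTCF4 (SD, n = 3), so Cox6b1 supplied most of the level in each library. Cox6a2, the form of heart and skeletal muscle, was at 22.1, 15.5 and 4.43 RPKM in WT and 33.7, 6.09 and 1.20 in dnTCF4. Replicate 1 was highest and replicate 3 lowest in both genotypes, and its share of the Cox6a genes ran from 11.3% to 52.2% in WT and from 2.42% to 46.5% in dnTCF4.

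Cox4i2, the isoform of lung, made up 0.902% ± 0.181 of the Cox4i level in WT and 1.26% ± 0.472 in dnTCF4 (SD, n = 3). Cox7a1, a muscle form, averaged 2.76 ± 0.597 RPKM in WT and 4.78 ± 1.65 in dnTCF4, less than 1% of the Cox7a level in every library. Mean shares in WT and dnTCF4 were 70.8% and 73.8% for Cox7a2 and 28.7% and 25.6% for Cox7a2l. Cox8c was listed at 0 in every library and Cox8b above 0 in 2 of 6. The ubiquitous isoforms were thus the main ones at each position except Cox6a, where WT replicate 1 held more Cox6a2 than Cox6a1.

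Complex V, the ATP synthase, has a catalytic head (F1), a membrane ring of c subunits and a peripheral stalk. In the head, Atp5b, the catalytic beta subunit, was at 31.0, 37.1 and 51.1 RPKM in WT and 47.3, 34.2 and 69.1 in dnTCF4. Atp5c1, the gamma subunit that turns inside the head, was at 286, 371 and 321 in WT and 373, 319.9 and 181 in dnTCF4. Atp5a1, the alpha subunit, averaged 108 ± 26.1 in WT and 110.0 ± 6.70 in dnTCF4 (SD, n = 3). In dnTCF4 replicate 3 the beta subunit was thus at its highest and the gamma subunit at its lowest of 6. Of the 5 F1 genes 3 had the higher mean in dnTCF4 (median log2 fold change 0.05), and Atp5d at 8.05 ± 2.44 and 9.99 ± 2.09 and Atp5e at 105 ± 31.1 and 86.9 ± 29.1 (SD, n = 3) each differed by less than 1 SD.

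The c subunit is made by 3 genes that encode the same mature protein with different import signals. Atp5g1 made up 60.9%, 57.2% and 57.0% of their level in WT and 54.2%, 52.9% and 70.8% in dnTCF4. Atp5g2 made up 16.3%, 15.6% and 19.8% in WT and 21.9%, 23.1% and 10.3% in dnTCF4. The mix stood apart in dnTCF4 replicate 3, in which Atp5g1 was the highest of 6 libraries and Atp5g2 the lowest. The group means of Atp5g1, 58.3% and 59.3% (n = 3 each), differed by less than the SD of either group.

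In the peripheral stalk, which holds the head still, 3 of 4 genes had the higher mean in dnTCF4. Atp5h, the highest member of the complex, was at 342, 360.0 and 383 RPKM in WT and 427, 378 and 592 in dnTCF4, and Atp5j at 156, 188 and 182 and 223, 196 and 282. Atp5j was the one gene of complex V whose groups did not overlap (log2 fold change 0.40, SE 0.20, limma adjusted p = 0.583). Atp5k, a small membrane subunit involved in dimer formation, was at 180.1, 232 and 264 in WT and 288, 247 and 391 in dnTCF4 (log2 fold change 0.44, SE 0.24, limma adjusted p = 0.608), with overlap at 1 library of each group. Atp5s matches the naming rule but is factor B, not a subunit of the stable complex, and was at 36.1 ± 2.94 and 43.1 ± 7.17 (SD, n = 3).

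Summed over subunits, the level of complex IV was 2375, 2800 and 2878 RPKM in WT and 3369, 2919 and 4193 in dnTCF4, a ratio of means of 1.30. The ratios were 1.04 for complex I, 1.00 for complex II, 1.05 for complex III, 1.13 for complex V and 1.10 for all 79 members. These ratios use RPKM as deposited, a scale in which immunoglobulin genes took 25.5% to 44.1% in WT and 3.27% to 6.33% in dnTCF4. A ratio above 1 is thus not by itself a rise relative to other genes. Median ratio scaling divides a library by its size factor, 0.930 for WT replicate 2 and 1.06 for dnTCF4 replicate 2. With it the groups of complex IV overlap. As a share of all 79 members in the same library, which does not depend on scaling, complex IV took 18.7%, 16.6% and 18.6% in WT and 18.8%, 19.6% and 25.1% in dnTCF4. Complex I took 44.4%, 46.8% and 45.5% in WT and 45.3%, 43.6% and 40.8% in dnTCF4. The shares of dnTCF4 replicates 1 and 2 were within 1 percentage point of the WT range, and replicate 3 stood apart in both.

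**Figure D5:**
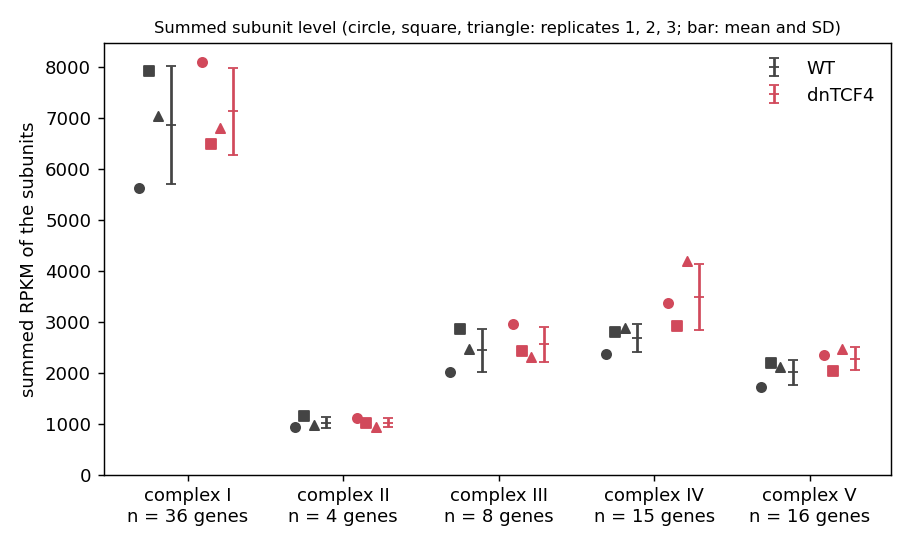
Summed RPKM of the subunits of each complex in each library (circle, square and triangle are replicates 1, 2 and 3), with the mean and SD of 3 libraries as bars, WT in grey and dnTCF4 in red. The axis starts at 0. On RPKM as deposited, the groups overlap in complexes I, II, III and V. In complex IV all 3 dnTCF4 libraries lie above the WT libraries, the nearest at 2919 and 2878, with dnTCF4 replicate 3 at 4193. With median ratio scaling, not drawn here, the groups of complex IV overlap.

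The direction of several complexes depended on scaling. Median ratio size factors move the median of all genes from 0.14 to -0.05. With them, medians of complexes I to V were -0.37, -0.33, -0.17, 0.19 and -0.00. Of the members 35 of 79 were then higher in dnTCF4, against 41.4% of all genes. Of the 2801 genes that averaged 20 RPKM or more as deposited, 904 were. Complex IV was the one whose median stayed above 0 by more than the rounding, with 11 of 15 subunits higher.

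Other genes of the pathway were read from lists. The transcripts of the mitochondrial genome supply subunits of complexes I, III, IV and V. They had a higher mean in dnTCF4 for 11 of 11 tested, and dnTCF4 replicate 3 was the highest library for all 11. Their median log2 fold change was 0.67, or 0.41 without dnTCF4 replicate 3, and none was called by limma. Summed over 13 such genes, they came to 7893 ± 1497 RPKM in the WT libraries and 12503 ± 4284 in the dnTCF4 libraries (SD, n = 3). Their WT means ran from 1.14 RPKM for mt-Atp8 to 2536 for mt-Cytb among those tested. Low too were mt-Co2 at 1.62, mt-Co3 at 2.77 and mt-Atp6 at 3.04, so the sum rests on the other genes. Such low levels are uncertain as levels of these genes. Among 40 tested assembly factors, which put the complexes together, 25 were higher and 15 lower, with a median of 0.09 (-0.10 with median ratio scaling), and 33 were higher without dnTCF4 replicate 3. The smallest p in that list was that of Coa6, a factor of copper delivery to complex IV, which averaged 2.30 ± 0.817 RPKM in WT libraries against 3.94 ± 0.765 in dnTCF4 libraries (SD, n = 3, limma adjusted p = 0.484).

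Of 14 enzyme genes of the TCA cycle, which feeds complexes I and II, 6 were higher and 8 lower, with a median of -0.16, and without dnTCF4 replicate 3 10 were higher, with a median of 0.04. Of 25 genes of mitochondrial import and the inner membrane, 14 were higher and 11 lower (median 0.06, or -0.15 with median ratio scaling). Of 14 regulators of mitochondrial DNA expression and biogenesis, 9 were higher and 5 lower, with a median of 0.19 that became 0.06 without dnTCF4 replicate 3 and -0.04 with median ratio scaling. Among them was Tfam, which packages mitochondrial DNA and averaged 4.80 ± 0.426 RPKM in WT libraries against 6.17 ± 0.904 in dnTCF4 libraries (SD, n = 3, limma adjusted p = 0.632). None of these genes was called. The naming rule leaves out Ndufab1 of complex I and Cyc1 of complex III, at 1.42 and 12.4 RPKM in WT and 1.80 and 15.5 in dnTCF4, and the carrier cytochrome c, Cycs, at 101 ± 11.6 and 100.6 ± 17.1 (SD, n = 3), where the means differed by less than either SD.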

How the data were processed

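The values are RPKM, as the authors deposited them in a single table of gene symbols against the 6 libraries. The submitters' processing notes list STAR, featureCounts, DESeq2, edgeR, mm10 and GRCm38. Which of these tools did what, in which version, with which gene models, and how reads that fit several genes were counted is not given in the sources used here. Per the labels' protocols, libraries were made from 20 ng of RNA with SMART-Seq v4 and Nextera XT and read paired-end on an Illumina NextSeq. This chemistry does not mark strand, so reads of overlapping and antisense genes cannot be told apart.

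Genes that averaged 1 RPKM or more were tested on log2(RPKM + 1), a scale that understates changes of low genes, with limma 3.58.1 (mean-variance trend, genotype as the only term, two-sided) in R 4.3.3. Adjusted p-values follow Benjamini-Hochberg over all 11326 genes, and a gene was called at an adjusted p under 0.05. Count depth was recovered from RPKM and exon lengths of GENCODE M21 (GRCm38), which made 92.9% to 93.3% of the values whole reads within 0.02, and 10004 genes, 63 of them members, whole in every library. For these members the lowest library count was 47 reads. No reads were recovered for the other 16 members. Libraries of the same group differed by more than sampling noise in every pairing. Coordinates and transcript GC content come from GENCODE, in which 78 members had 1 entry, and promoters from RefSeq.

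Same-numbered libraries of the 2 genotypes deviated together from their group means, with correlations of 0.17, 0.35 and 0.30 across genes. Each was over the bound of 0.1, so the replicate numbers were taken as pairs in an alternative fit. Over the members alone these correlations were -0.16, 0.76 and 0.59. Those of differently numbered libraries ran from -0.80 to 0.70 over the members, which thus do not bear out the pairing by number. The members and gene lists were chosen with earlier results of these data known. By the rule for named genes, the text names the complex II genes, the core, F1 and c subunits, the highest and lowest member of each complex, its 3 smallest p, and isoforms of 1 subunit. For 1 gene under this rule, values are not reported here. Ndufb7, Ndufb8, Ndufc2, Ndufa11, Ndufa13, Ndufa6, Uqcr11 and the pairs in ratios were chosen after their values were seen. The limma script was tested on simulated data. Summaries used pandas 2.3.3 and numpy 2.4.6 in Python 3.11.15, and figures matplotlib 3.10.9.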

Additional observations from a re-analysis of the deposited data

How the results depend on the processing

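No subunit was called under any of the 14 alternatives run, with limma or, on recovered reads, limma voom. The count over all genes was 34 and became 6 without a filter on low values, 18 with median ratio scaling, 0 with immunoglobulin genes left out (604 genes at an unadjusted limma p under 0.05), 14 with voom and 7 to 47 with libraries left out (7 without WT replicate 1, 11 without dnTCF4 replicate 3, 16 and 22 without dnTCF4 replicates 2 and 1, 18 without WT replicate 3). With the replicate block it was 49, or 0.433% of the genes, and no call of a named subunit changed (smallest adjusted p of a member 0.227, limma). In this balanced design the block leaves every fold change as it was, so directions could not change. The fit without WT replicate 2 and dnTCF4 replicate 3 was added after the data were seen.

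The median log2 fold change of complex III, 0.05, became 0.23 among members averaging 5 RPKM or more, -0.17 with median ratio scaling, -0.14 with immunoglobulin genes left out and 0.24 with voom, and lay between -0.00053 and 0.24 with libraries left out. Medians of the other complexes moved by less than the spread between replicates. Without dnTCF4 replicate 3 the median of complex I turned from -0.13 to 0.11 and that of complex II from -0.10 to 0.08. Without WT replicate 2 that of complex I was 0.04.

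Of 49 named genes, none called, 8 changed sign with median ratio scaling (Atp5a1 -0.18, Atp5g1 -0.025, Atp5g2 -0.013, Atp5g3 -0.17, Cox4i2 -0.0027, Ndufa4 -0.0092, Sdhd -0.13 and Uqcrc2 -0.0057), 3 with immunoglobulin genes left out (Atp5a1 -0.15, Atp5g3 -0.14 and Sdhd -0.10) and 1 of 39 with voom (Ndufb2, 0.0043). Leaving out libraries changed the sign of 14 without dnTCF4 replicate 3 and of 20 without that library and WT replicate 2. The lowest and highest values were -0.15 and 0.24 for Atp5a1, -0.43 and 0.19 for Atp5c1, -0.52 and 0.21 for Atp5e, -0.12 and 0.27 for Atp5g3, -0.42 and 0.18 for Cox4i1, -0.18 and 0.43 for Cox5a, -1.69 and 0.49 for Cox6a2, -0.84 and 0.23 for Ndufa11, -0.92 and 0.38 for Ndufa13, -0.15 and 0.18 for Ndufb2, -1.13 and 0.32 for Ndufb7, -1.13 and 0.28 for Ndufb8, and -0.91 and 0.54 for Ndufc2. They were -0.28 and 0.11 for Ndufs3, -0.49 and 0.34 for Ndufs7, -0.65 and 0.074 for Ndufs8, -0.79 and 0.17 for Ndufv1, -0.30 and 0.22 for Ndufv2, -0.51 and 0.28 for Sdha, -1.02 and 0.26 for Sdhb, -1.05 and 0.30 for Uqcr11, and -0.31 and 0.14 for Uqcrc1. The cause of these changes was not tested.

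Groups of 3 limit what could be called: the SE of a member's log2 fold change ran from 0.15 to 0.99 (Cox6a2). Of the members with recovered reads, Cox6a2 (at least 47 reads in a library) and Cox7a1 (at least 75) were read most thinly. Members that share sequence with other genes, 15 of 79 with 20% or more of their 50-base words, are uncertain in level.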
